A study of Mus musculus with 2 samples.

Results

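Connexins and pannexins are the channel proteins through which neighbouring cells, or a cell and its surroundings, exchange ions and small molecules. Of 43346 gene rows in the tables, 8 genes of these families were followed here: the connexins Gja1, Gjc1, Gjb2, Gjb6, Gjb5 and Gjb1 and the pannexins Panx1 and Panx3. They were taken from the gene tables by gene identifier without version, named by GENCODE symbol on mouse GRCm38, and all 8 matched a row. The other connexins and Panx2 serve as the rest of the family.

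Total RNA of the embryonic facial prominences, the tissue that forms the jaws, nose and palate, was sequenced from healthy mouse embryos at embryonic day 13.5. The strain is labelled B6NCrl, and male and female embryos were pooled. There are 2 libraries of this 1 group, numbered as biological replicates 1 and 2, each made from 10 ng of RNA longer than 200 nt. The labels give the replicates different biosample identifiers and the same donor identifier, and they describe no treatment, no mutant and no other tissue.

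As background, a gap junction channel forms where hemichannels of connexins in adjacent membranes dock, and each connexin spans the membrane several times with paired extracellular loops held by disulphide bonds. Pannexins share this membrane layout, although not the sequence, and work mostly as single-membrane channels that release ATP to receptors on nearby cells. In the face, gap junctions couple mesenchyme, epithelium and the first bone-forming cells, and human GJA1 variants cause a syndrome of facial, dental and digit malformations.

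The replicate 1 library held 28542452 expected counts on gene rows and the replicate 2 library 22719352. In CPM, the counts of a gene scaled to a gene-row total of 1000000, a gene with a count of 0 may still lie at up to 0.105 CPM in replicate 1 and 0.132 CPM in replicate 2, the value of 3 counts. All intervals and floors cover counting or estimation error only. Markers of the labelled tissue were present: all 5 mesenchyme genes and all 5 basal epithelial genes reached 1 TPM (transcript abundance per length, scaled to a library total of 1000000) in both libraries, with Col3a1 at 1137 and 1089 TPM and Krt14 at 507 and 444 TPM in replicates 1 and 2. The libraries stood apart in RNA of other organs. The 10 liver markers summed to 4.18 TPM in replicate 1 and 292 TPM in replicate 2, and all 10 were at least 1.5-fold higher in replicate 2. Afp had 0.45 and 84.7 TPM and Alb 1.34 and 46.5 TPM in replicates 1 and 2, while Apob and Fgb had 0 counts in replicate 1. The 8 heart markers summed to 16.0 TPM in replicate 1 and 88.2 TPM in replicate 2, and all 8 were at least 1.5-fold higher in replicate 2. Of all 17707 genes compared, 8.76% were. Both lists were chosen with earlier results of these data known, so these counts only describe the libraries.

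Gja1 was by far the most abundant of the 8 genes, Gjc1 came next, and Panx1, Gjb2, Gjb6 and Panx3 followed at intermediate levels. Gjb5 was near the floor in both libraries, and Gjb1 had reads in replicate 2 alone. In all, 6 of the 8 reached 1 TPM in both libraries, beside 60.9% of all 21474 protein-coding genes. The count was 6 in replicate 1 and 7 in replicate 2, the added gene being Gjb1. In a bulk sample, fewer cells that express a gene and less of its RNA per cell cannot be told apart.

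**Figure D1:**
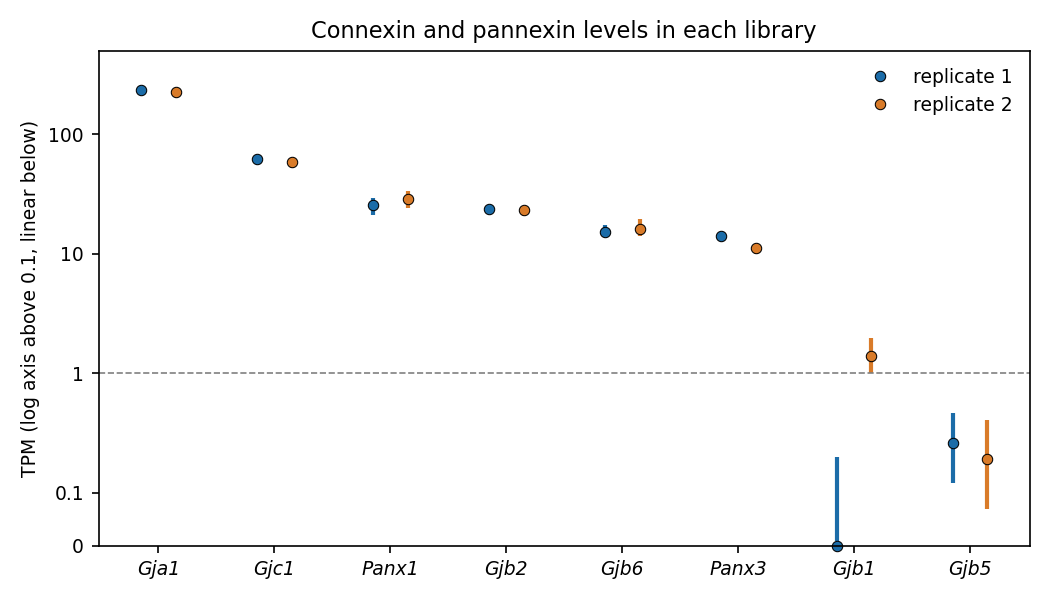
Level of each gene in TPM (vertical axis, logarithmic above 0.1 TPM and linear below) in replicate 1 (left point) and replicate 2 (right point). Vertical lines are the deposited 95% credibility intervals and the dashed line marks 1 TPM. The levels run down from Gja1 at 237 and 224 TPM to Gjb5 at 0.26 and 0.19 TPM, and only the points of Gjb1 lie far apart.

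Read from the highest level down, some neighbours differed and some did not. A pair was called set apart where the credibility intervals did not overlap in either library, the order was the same in both, and the mean log2 ratio of the TPM values was over 3 times its SD. Gja1 stood above Gjc1 by 1.94 ± 0.000167 on the log2 scale (SD, n = 2), Gjc1 above Panx1 by 1.14 ± 0.19, and Gjb2 above Gjb6 by 0.58 ± 0.09, all 3 set apart. Panx1 and Gjb2 were not set apart (0.21 ± 0.16), nor were Gjb6 and Panx3 (0.31 ± 0.30). Panx3 lay above Gjb1 with separate intervals in both libraries, but Gjb1 had no reads in replicate 1, so no ratio is given there. Gjb1 and Gjb5 changed places between the libraries. Agreement of such ratios between 2 libraries rests on few values, and an SD over 2 values is itself uncertain.

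Gja1 encodes Cx43, the most widely expressed connexin, found in mesenchyme, bone and many epithelia. It lies on the plus strand of chromosome 10 (mm10, 56377330 to 56402513) and has 1 transcript in the tables. It had 237 TPM in replicate 1 and 224 TPM in replicate 2, from 15048 and 10854 expected counts, with a mean of 230.3 ± 9.05 TPM (SD, n = 2). Both libraries are thus close, and 2.58% of protein-coding genes had a higher mean TPM. In both libraries this deposited TPM lies above its upper credibility bound (234 and 220.2 TPM), while the deposited posterior means of 230.4 and 216 TPM lie within their intervals. Gja1 made up 66.0% of the TPM of all 20 connexin genes in replicate 1 and 64.6% in replicate 2, that is 65.3 ± 1.00%. The 250 bases before its RefSeq start (GRCm38.p6, chr10:56377050-56377299, plus strand) are shown because this is the start behind most connexin RNA of the tissue. Capitals would mark, on either strand, a TATA box (TATAAA), a GC box (searched as GGGCGG) or a CCAAT box (searched by those letters).

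Gja1: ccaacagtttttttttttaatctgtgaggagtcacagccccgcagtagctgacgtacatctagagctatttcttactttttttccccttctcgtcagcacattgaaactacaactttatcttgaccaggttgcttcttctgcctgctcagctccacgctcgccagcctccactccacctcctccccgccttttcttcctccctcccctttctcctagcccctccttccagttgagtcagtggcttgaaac

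None of these 3 motifs is in the Gja1 window. Its GC content is 50% with 6 CpG, beside medians of 52.4% and 6 over the 32851 RefSeq promoter windows of the same length. Of those windows 12.4% hold a TATA box by these letters, 32.7% a GC box and 33.8% a CCAAT box on either strand. A match is only a match of letters.

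Gjc1 encodes Cx45, an early connexin of mesenchyme, developing vessels and heart. It lies on the minus strand of chromosome 11 (mm10, 102799579 to 102819700). It had 61.6 TPM in replicate 1 and 58.2 TPM in replicate 2, from 2208 and 1563 expected counts (mean 59.9 ± 2.35 TPM, SD, n = 2). Gja1 had 3.84 times its level in each library. Gjc1 held 17.0 ± 0.26% of the connexin TPM, so that it and Gja1 together made up 82.2%. Its RNA was divided over 5 transcripts, of which Gjc1-201 took 76.3% in replicate 1 and 69.7% in replicate 2 (73.0 ± 4.67%). The other coding transcripts, Gjc1-202 and Gjc1-203, took 7.31 ± 2.78% and 5.29 ± 0.40%. Gjc1-204, a non-coding transcript of 247 nt, was assigned 11.4 ± 1.73% of the TPM on 19.7 and 17.6 expected counts, and Gjc1-205, which retains an intron, 2.96 ± 0.55%. A TPM value divides reads by length, so few reads give a short transcript such as Gjc1-204 a large share.

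**Figure D2:**
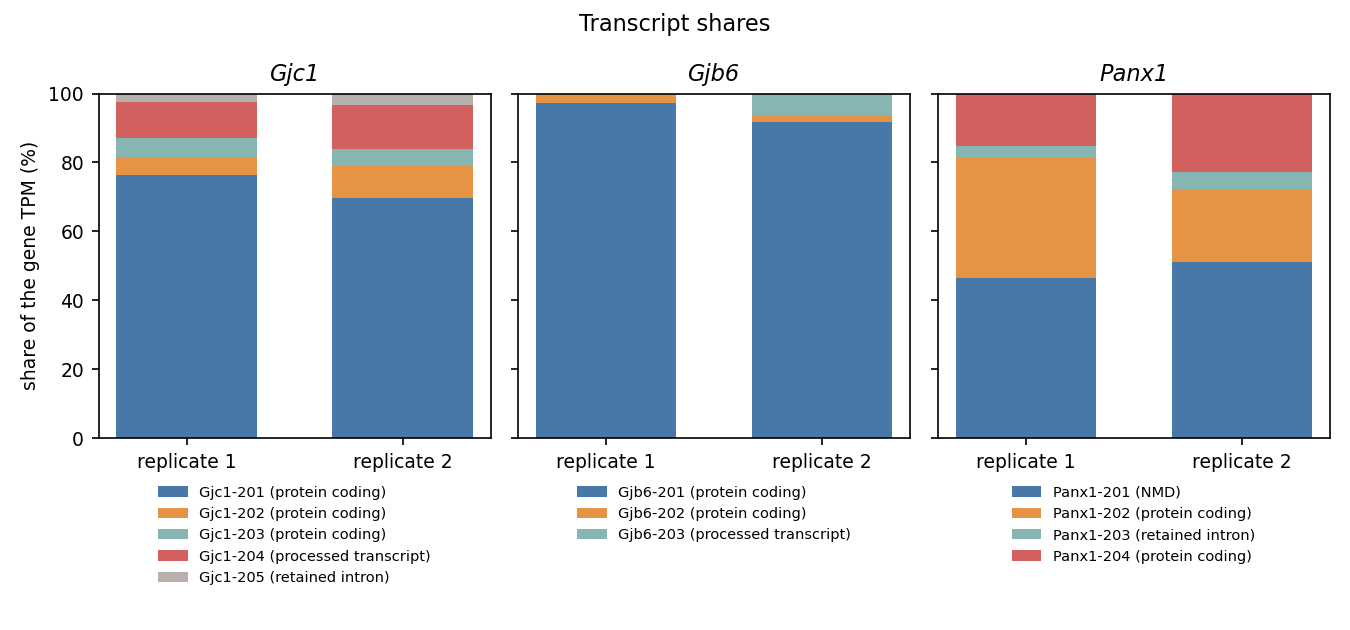
Share of each gene's TPM (vertical axis, percent) assigned to its transcripts in replicate 1 and replicate 2 for Gjc1, Gjb6 and Panx1, with the annotated transcript type in the legend. A single coding transcript holds 73.0% of Gjc1 and 94.5% of Gjb6 on average, while Panx1 is divided between Panx1-201, typed as a target of nonsense-mediated decay (NMD), and coding transcripts.

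Gjb2 and Gjb6 encode Cx26 and Cx30, connexins of epithelia, which join in mixed channels in the cochlea and whose human counterparts are deafness genes. They are neighbours on the minus strand of chromosome 14 (mm10, Gjb2 at 57098600 to 57104702 and Gjb6 at 57123303 to 57133611), 18.6 kb apart. Gjb2 had 23.6 TPM in replicate 1 and 23.1 TPM in replicate 2 (23.4 ± 0.34 TPM, SD, n = 2), from 1151 and 860 expected counts. Gjb6 had 15.1 and 16.1 TPM in replicates 1 and 2 (15.6 ± 0.71 TPM), from 630 and 484 expected counts. Gjb2 was the higher of the pair by 1.56-fold in replicate 1 and 1.43-fold in replicate 2. Their neighbour Gja3, the lens connexin Cx46, was 40.5 kb from Gjb2 and had only 0.65 and 0.77 TPM. Gjb2 thus exceeded Gja3 by 36.3-fold and 30.01-fold in TPM. Gjb6-201 held 97.2% of the Gjb6 TPM in replicate 1 and 91.7% in replicate 2. The 250 bases before each RefSeq start (GRCm38.p6, minus strand, chr14:57104703-57104952 for Gjb2 and chr14:57133612-57133861 for Gjb6) are shown because these genes are neighbours with nearby levels. Capitals mark the same motifs.

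Gjb2: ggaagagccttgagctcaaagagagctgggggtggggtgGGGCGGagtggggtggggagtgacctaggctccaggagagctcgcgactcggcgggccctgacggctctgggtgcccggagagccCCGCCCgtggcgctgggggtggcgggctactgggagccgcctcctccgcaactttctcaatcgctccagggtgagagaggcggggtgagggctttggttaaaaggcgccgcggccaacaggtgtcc
Gjb6: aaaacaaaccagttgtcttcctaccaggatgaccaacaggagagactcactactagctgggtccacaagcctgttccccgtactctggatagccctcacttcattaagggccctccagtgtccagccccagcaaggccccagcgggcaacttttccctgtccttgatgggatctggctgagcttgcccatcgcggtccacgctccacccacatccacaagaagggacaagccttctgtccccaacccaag

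The Gjb2 window holds 2 GC boxes, the Gjb6 window none, and neither holds a TATA box or a CCAAT box. The Gjb2 window has 69.2% GC and 18 CpG, and 89.6% of all windows have a lower GC content. The Gjb6 window has 56.8% GC and 5 CpG, with 63.6% of windows lower. The neighbours therefore differ in base composition at their starts while their RNA levels differed by at most 1.56-fold.

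Gjb5 encodes Cx31.1, a connexin of stratified epithelium and trophoblast. It lies on the minus strand of chromosome 4 (mm10, 127354809 to 127358181). It had 0.26 TPM in replicate 1 and 0.19 TPM in replicate 2, from 9 and 5 expected counts, and was not detected at 1 TPM. It lies in the same cluster of connexin genes as Gja4 (Cx37, an endothelial connexin), which had 8.32 TPM in replicate 1 and 11.0 TPM in replicate 2. Detected and undetected connexins thus lay in the same cluster. Of the 4 suprabasal keratinocyte markers, which go with stratified epithelium, 2 reached 1 TPM in both libraries, beside 60.9% of protein-coding genes. Only 3 had enough counts to be compared between the libraries. These 3 were past 1.5-fold higher in replicate 1, beside 3.99% of all genes compared. Krt1 had 40.1 and 23.0 TPM, Krt10 had 24.9 and 17.3 TPM in replicates 1 and 2.

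**Figure D3:**
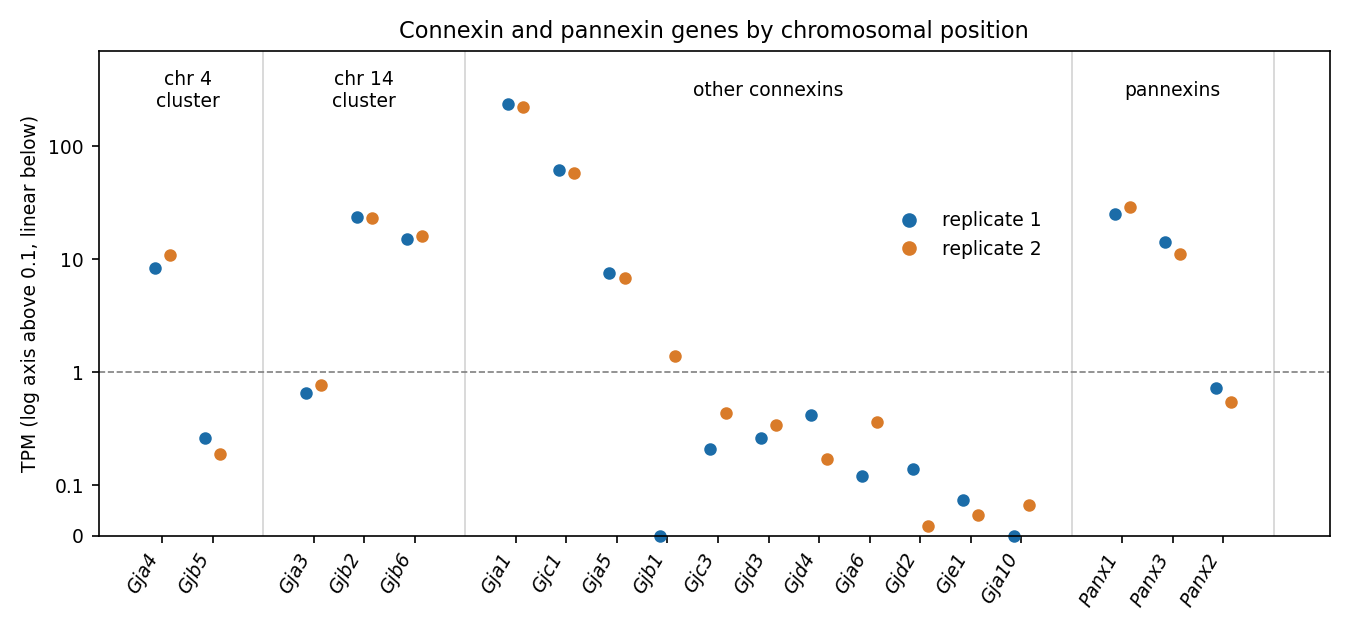
Level in TPM (vertical axis, logarithmic above 0.1 TPM and linear below) of 16 connexin and 3 pannexin genes in replicate 1 (left point) and replicate 2 (right point), grouped by chromosomal cluster. The dashed line marks 1 TPM, which 8 of the 19 genes shown reached in both libraries, with Gja1 highest.

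Gjb1 encodes Cx32, the main connexin of hepatocytes and of myelinating Schwann cells, and human GJB1 variants cause an X-linked neuropathy. It lies on the plus strand of chromosome X (mm10, 101376378 to 101385629). It had 0 expected counts in replicate 1 and 33 in replicate 2, which is 0 and 1.40 TPM. The credibility interval was 0.00890 to 0.200 TPM in replicate 1 and 1.01 to 1.97 TPM in replicate 2, with no overlap. Taken as counts scaled by TMM (edgeR's trimmed mean of M values), Gjb1 in replicate 2 lay 13.5-fold above the 3-count floor of replicate 1. This leaves out counting error in replicate 2, so it is not a lower bound of the difference. With counting error in both libraries, the exact Clopper-Pearson interval of the log2 ratio of replicate 1 over replicate 2 reached up to -3.37. That interval has no lower end, since replicate 1 had 0 counts. The liver markers were also higher in replicate 2, as given above, 10 of 10 at least 1.5-fold, beside 8.76% of the 17707 genes compared. Like Gjb1, some of them, such as Fgb with 0 and 277 counts, passed the minimum mean count of 10 only through replicate 2. The list was also chosen with earlier results of these data known, so this count only describes the libraries. The list summed to 4.18 and 292 TPM in replicates 1 and 2. Heart markers were higher there too, with Myl2 at 0 and 24.6 TPM, Nppa at 0.19 and 8.26 TPM, Tnnt2 at 9.17 and 29.2 TPM and Myh7 at 0.93 and 5.36 TPM in replicates 1 and 2. A shared direction in 2 libraries does not measure joint change. The 4 Schwann cell markers were detected in both libraries and summed to 24.3 and 29.8 TPM in replicates 1 and 2 (Sox10 at 6.02 and 8.61 TPM). The part of these cells in the Gjb1 reads was not tested.

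Gjb1 has 3 annotated transcripts that begin at different starts and share the coding exon. All 33 counts of replicate 2 were assigned to Gjb1-201, but the credibility intervals overlap: 0.219 to 1.51 TPM for Gjb1-201, up to 0.914 TPM for Gjb1-202 and up to 0.714 TPM for Gjb1-203. The start in use is therefore not resolved at this depth. For orientation, the 250 bases before the RefSeq starts nearest to Gjb1-201 and Gjb1-203 are shown (GRCm38.p6, plus strand, chrX:101376985-101377234 and chrX:101383482-101383731), with capitals as before.

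Gjb1, start near Gjb1-201: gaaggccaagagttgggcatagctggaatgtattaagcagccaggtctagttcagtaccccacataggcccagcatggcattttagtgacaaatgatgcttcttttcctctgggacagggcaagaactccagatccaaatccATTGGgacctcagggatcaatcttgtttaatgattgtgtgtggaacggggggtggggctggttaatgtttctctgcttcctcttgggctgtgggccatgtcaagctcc
Gjb1, start near Gjb1-203: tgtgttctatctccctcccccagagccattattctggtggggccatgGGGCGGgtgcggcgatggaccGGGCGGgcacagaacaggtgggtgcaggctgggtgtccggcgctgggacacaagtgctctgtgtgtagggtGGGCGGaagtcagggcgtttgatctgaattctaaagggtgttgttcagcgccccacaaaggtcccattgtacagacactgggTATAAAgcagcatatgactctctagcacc

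The window near Gjb1-201 holds 1 CCAAT box and neither of the other motifs, with 50% GC and 1 CpG. The window near Gjb1-203 holds 1 TATA box and 3 GC boxes and no CCAAT box, with 58.4% GC and 10 CpG.

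Panx3 is the pannexin of cartilage and bone, where in mouse it is expressed by prehypertrophic chondrocytes and osteoblasts. It lies on the minus strand of chromosome 9 (mm10, 37659902 to 37669235). It had 14.1 TPM in replicate 1 and 11.2 TPM in replicate 2 (12.7 ± 2.04 TPM, SD, n = 2), from 722 and 438 expected counts. It was thus the lower of the detected pannexins, and its RNA was all assigned to the coding transcript Panx3-201. On TMM-scaled counts it was 0.43 higher in replicate 1 on the log2 scale (exact Clopper-Pearson 95% interval 0.26 to 0.60). Of the bone markers, Ibsp had 293 and 184 TPM and Runx2 had 30.0 and 31.6 TPM in replicates 1 and 2. On TMM-scaled counts the log2 ratio of replicate 1 over replicate 2 was 0.77 for Ibsp, 0.51 for Sp7 and 0.22 for Runx2. Runx2 was thus higher in replicate 1 on this scale and lower there by TPM. Of the 5 bone markers, Spp1, with 4.58 and 7.52 TPM, went the other way at -0.62. Bglap, with 4.6 and 2.75 expected counts, had too few to be compared. Ibsp was past 1.5-fold higher in replicate 1 and Spp1 past 1.5-fold higher in replicate 2. The list summed to 353 TPM in replicate 1 and 242 TPM in replicate 2, most of it Ibsp, and 4 of 5 were detected. The 5 cartilage markers, all detected, summed to 421 TPM in replicate 1 and 562 TPM in replicate 2, with Col2a1 at 230.4 and 296 TPM and Sox9 at 80.9 and 119 TPM. The part of bone and cartilage cells in the Panx3 difference was not tested.

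Panx1 encodes the widely expressed pannexin that releases ATP. It lies on the minus strand of chromosome 9 (mm10, 15002128 to 15045478). It had 25.4 TPM in replicate 1 and 29.0 TPM in replicate 2 (27.2 ± 2.53 TPM, SD, n = 2), from 955 and 714 expected counts. Panx1 exceeded Panx3 by 1.80-fold in replicate 1 and 2.58-fold in replicate 2, with separate credibility intervals in both. It held 67.1 ± 5.63% of the pannexin TPM, Panx3 31.3 ± 5.32% and Panx2, a pannexin of the nervous system, 1.57 ± 0.31%. Panx2 was below 1 TPM in both libraries, at 0.72 and 0.55 TPM.

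In Panx1 the transcript with the largest share is not typed as coding, while in the other genes it is (for Gjb1 in replicate 2). This was fixed for Gja1, Gjb2 and Gjb5, with 1 transcript each, and for Gjb1, whose 3 transcripts are all typed as coding. The share over all genes was not computed. Panx1-201, which the annotation types as a target of nonsense-mediated decay, took 46.4% of the TPM in replicate 1 and 51.2% in replicate 2 (48.8 ± 3.41%). Panx1-202, which encodes the full-length protein of 426 residues, took 35.0% in replicate 1 and 21.1% in replicate 2 (28.1 ± 9.84%). Their credibility intervals overlap in replicate 1, where the lower bound of Panx1-201 is 9.00 TPM and the upper bound of Panx1-202 10.6 TPM. They do not in replicate 2 (11.8 to 16.9 TPM for Panx1-201 and 3.99 to 7.71 TPM for Panx1-202). Panx1-204, a transcript of 357 nt typed as coding, took 19.0 ± 5.38% on 21.04 and 27.5 expected counts. All transcripts typed as coding together held 50.2% in replicate 1 and 43.9% in replicate 2. Panx1-203, which retains an intron, held 4.13 ± 1.05%.

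Panx1-201 lacks exon 3 of Panx1-202, a coding exon of 221 bases (GRCm38, chr9:15010036-15010256, minus strand). Since 221 leaves a remainder of 2 on division by 3, its loss shifts the reading frame. The exon is shown because it is what Panx1-202, the transcript of the full-length channel, has and Panx1-201 lacks. The next lines both start with the last 30 bases of the exon before exon 3. In Panx1-202 the capitals are the first 30 bases of exon 3. In Panx1-201 the exon after exon 3 follows instead, and the capitals are the stop codon that the skip brings into frame.

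Panx1 exon 3: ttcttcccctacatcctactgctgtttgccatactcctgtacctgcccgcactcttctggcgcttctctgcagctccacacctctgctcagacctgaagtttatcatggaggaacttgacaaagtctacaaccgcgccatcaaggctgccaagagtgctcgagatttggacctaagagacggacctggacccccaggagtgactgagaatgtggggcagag
Panx1-202 junction: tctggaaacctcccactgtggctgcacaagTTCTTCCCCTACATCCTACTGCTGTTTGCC
Panx1-201 junction: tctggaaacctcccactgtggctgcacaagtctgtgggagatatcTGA

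The stop codon of Panx1-201 ends 18 bases after the junction and 641 bases before the last exon junction. It closes a reading frame of 112 codons, the last of them read after the shift, where Panx1-202 has 426. As background, a stop codon well upstream of the last junction is what marks a transcript for decay. The split between the transcripts was estimated from reads along their whole length, and read counts on the junctions themselves were not used here. The 2 transcripts also differ at their 3′ end, with lengths of 1854 nt for Panx1-201 and 2699 nt for Panx1-202 in the deposited tables. In the later GENCODE M21 annotation Panx1-202 has 5732 nt, so reads on the added 3′ end were not in the model used for these tables.

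Between the libraries, 7 of the 8 genes had a mean expected count of 10 or more and could be compared, Gjb1 only through replicate 2. With TMM scaling, Gjb1 was the 1 gene past 1.5-fold. None of the 7 was past 1.5-fold higher in replicate 1 and 1 in replicate 2, beside 3.99% and 8.76% of the 17707 genes compared. The log2 ratio of replicate 1 over replicate 2 was 0.18 for Gja1 (exact Clopper-Pearson 95% interval 0.14 to 0.22), 0.21 for Gjc1 (0.11 to 0.30), 0.13 for Gjb2 (0.000331 to 0.26), 0.09 for Gjb6 (-0.08 to 0.26) and 0.13 for Panx1 (-0.01 to 0.27). The median over the 7 was 0.13, beside a median of 0.02 and deciles of -0.51 and 0.31 over all genes compared. The sign of these small ratios depends on the scale: with the spike-in total as the scale the all-gene median became -0.54, Gja1 -0.38 and Panx3 -0.13, and with a ratio of TPM Panx1 and Gjb6 came out at -0.19 and -0.09.

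**Figure D4:**
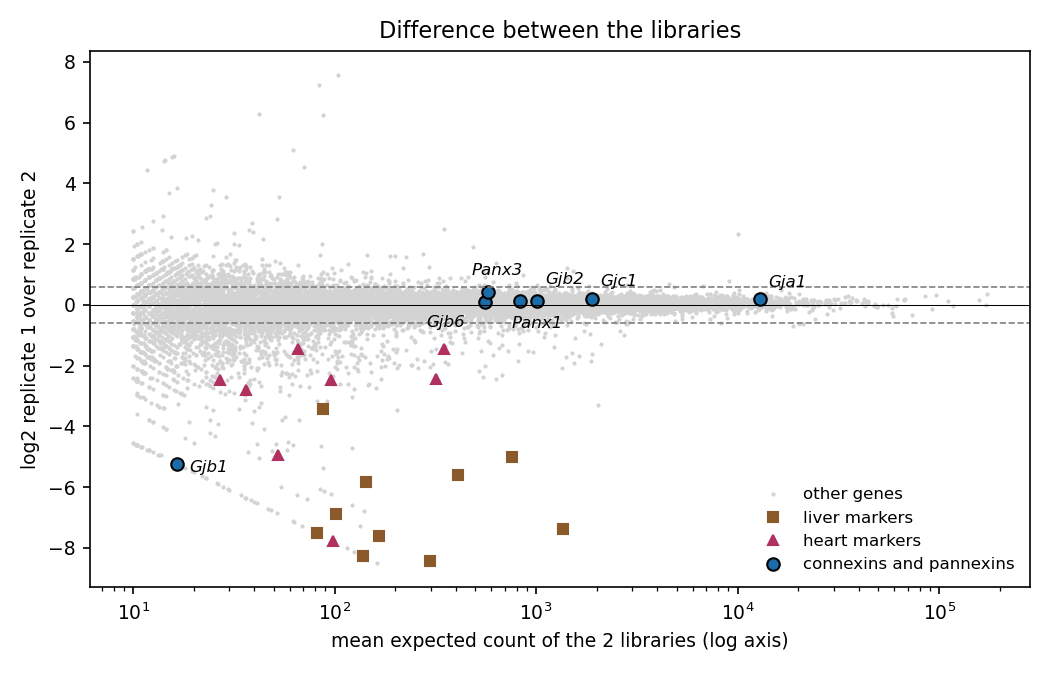
Log2 ratio of replicate 1 over replicate 2 (vertical axis, TMM scaling, prior count 1) against the mean expected count of the 2 libraries (horizontal axis, logarithmic) for the 17707 genes compared. Circles are the connexins and pannexins, squares the liver markers, triangles the heart markers, and dashed lines mark 1.5-fold. Apart from Gjb1, whose place on the vertical axis depends on the prior count because it had 0 counts in replicate 1, the circles lie between the dashed lines.

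Of 10 other connexins reported here, 2 reached 1 TPM in both libraries: Gja4, described above, and Gja5 (Cx40, a connexin of arteries and atria). Gja5 had 7.55 TPM in replicate 1 and 6.88 TPM in replicate 2, and its gene overlaps other annotated genes. Its expected counts of 481 and 334 were whole numbers, which leaves no sign of reads divided between genes. Whether the overlap affected its counts was not tested further. Gja4 held 2.74% of the connexin TPM and Gja5 2.04%. The endothelial markers, to which Gja4 and Gja5 are tied by their known expression, were all 5 detected, with Pecam1 at 21.8 and 25.9 TPM and Emcn at 17.0 and 25.1 TPM. The neuronal Gjd2 (Cx36) had 0.14 and 0.02 TPM. The glial connexin Gjc3 had 0.21 and 0.44 TPM in replicates 1 and 2. Gjd3 had 0.26 and 0.34 TPM, Gjd4 0.42 and 0.17 TPM, Gja6 0.12 and 0.36 TPM, Gje1 0.07 and 0.04 TPM and Gja10 0 and 0.06 TPM. Past 1.5-fold were Gjd4, higher in replicate 1 with 23 and 7 counts, and Gjc3, higher in replicate 2 with 15 and 24 counts. These rest on few reads: the interval of Gjc3 runs from -2.01 to 0.02 on the log2 scale.

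Genes that work with connexins were broadly present. All 14 listed partners, which scaffold, phosphorylate, fold or turn over connexins, reached 1 TPM in both libraries, and their median was 37.6 TPM beside 4.68 TPM over all protein-coding genes. Nedd4, a ubiquitin ligase that acts on Cx43, was highest with 495 TPM in replicate 1 and 546 TPM in replicate 2. Dbn1, the actin-binding drebrin that holds Cx43 at the membrane, had 207 and 211 TPM. Erp29, a chaperone of the endoplasmic reticulum that acts on Cx43, had 119.8 and 123 TPM. No partner differed by 1.5-fold between the libraries.

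The list of purinergic signalling holds 25 genes, mostly receptors and enzymes for nucleotides and adenosine outside the cell. Of these, 16 reached 1 TPM in both libraries, beside 60.9% of all protein-coding genes, and 10 reached 2 TPM. Their median was 1.27 TPM, beside 4.68 TPM over all protein-coding genes. Alpl, the tissue-nonspecific alkaline phosphatase of bone-forming cells, was highest, at 91.6 and 84.5 TPM in replicates 1 and 2. The adenosine receptor Adora2b had 10.8 and 13.2 TPM, the ATP-gated channel P2rx4 had 11.4 and 9.33 TPM, and the ectonucleotidase Entpd1 had 5.55 and 9.57 TPM. Of the 23 that could be compared by the same count minimum, 2 were past 1.5-fold higher in replicate 1 and 1 in replicate 2, beside 3.99% and 8.76% of all genes compared. Adora3 (34 and 11 counts) and the vesicular nucleotide transporter Slc17a9 (30 and 13 counts) were the ones higher in replicate 1, with log2 intervals of 0.32 to 2.47 and -0.07 to 1.98. P2rx3, a channel of sensory neurons, was higher in replicate 2 (22 and 32 counts), with an interval of -1.69 to -0.00394.

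**Figure D5:**
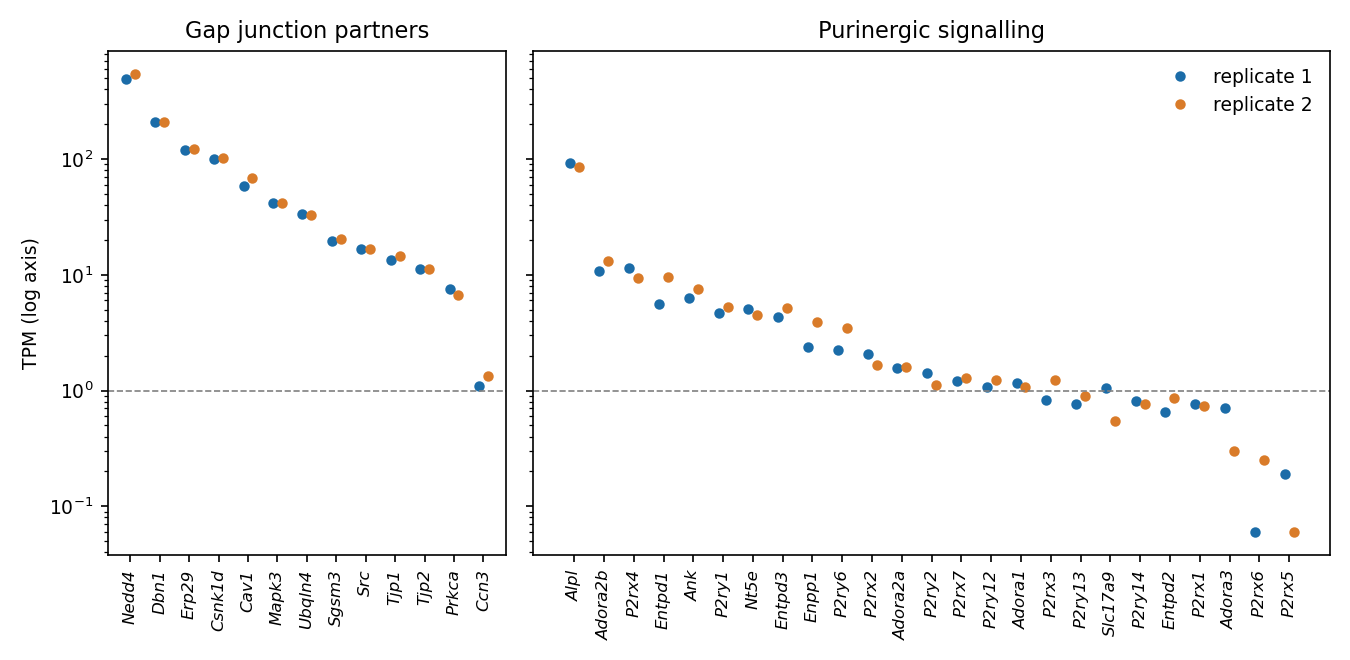
Level in TPM (vertical axis, logarithmic) of 13 gap junction partner genes (left panel) and of the 25 purinergic genes (right panel) in replicate 1 and replicate 2, ordered by mean level. The dashed line marks 1 TPM, which all 13 partners shown and 16 of the 25 purinergic genes reached in both libraries.

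Translation of the annotated coding sequences gave features of the proteins. The genes were chosen by family name, so features shared within a family are not independent of that choice. All 6 connexins had the coding sequence in 1 exon, against 5 coding exons for Panx1 and 4 for Panx3. All 6 also carried both cysteine triplets of the extracellular loops (a cysteine, 6 residues, a cysteine, 3 residues and a cysteine in the first, and gaps of 4 or 5 and of 5 residues in the second), and none of the 3 pannexins did. Over all 20 connexin genes, 15 had the coding sequence in 1 exon and 19 had both triplets. Among the 6, the first triplet began at residue 54 in Gja1 and at residue 53 in the other 5. These 6 ran from 226 residues in Gjb2 to 396 in Gjc1, while Panx1 and Panx3 had 426 and 392. Over the 15 pairs of these connexins, protein identity ranged from 35.6% for Gjb5 with Gjc1 to 76.5% for the neighbours Gjb2 and Gjb6, with a median of 43.8%. Panx1 and Panx3 were 41.2% identical over 379 aligned residues. Despite the likeness of Gjb2 and Gjb6, the expected counts of all 8 genes were whole numbers in both libraries, which leaves no sign of reads divided between genes, and none of the 8 overlaps another annotated gene.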

How the data were processed

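Both libraries came with a gene table and a transcript table. Per the file headers, the authors deposited expected counts (estimated numbers of reads, some of them fractional), TPM values (which sum to 1000000 with spike-in rows included), FPKM values, and posterior means with 95% credibility bounds. The deposited upper credibility bounds of TPM were treated as a signal. The deposited posterior standard deviations enter no result given here. The deposited percent column for isoforms served as an alternative to transcript shares computed from TPM. Notes deposited with the files name mm10 and GENCODE M4. The aligner, the quantifier and the strand setting are not given in the sources used here.

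Symbols and coordinates came from GENCODE M21 (GRCm38, the assembly of mm10), with 42462 of 43346 gene rows matched. Spike-in rows took 6.27% of counts in replicate 1 and 4.45% in replicate 2 (13.4% and 9.68% of TPM) and stayed out of library sizes. Expected counts were rounded and scaled by TMM in edgeR 4.0.16 (R 4.3.3), with DESeq2 1.42.0 size factors as an alternative. Library ratios used a prior count of 1, a mean expected count of at least 10 and a call at 1.5-fold, with exact Clopper-Pearson 95% intervals (scipy 1.17.1). With 2 libraries of 1 group conditions could not be tested and p-values are absent. The ratio step was run on simulated counts with counting error alone and changes larger than 1.5-fold. Calls near 1.5-fold and spread between libraries beyond counting error were thus not tested. The labels do not say whether the replicates are separate litters, so the spread may be partly technical.

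Promoter windows are RefSeq's on GRCm38.p6: 6 of the 8 genes matched, with 9 windows, and Gjc1 and Panx3 had no entry. Transcript sequences are GENCODE's, and identities came from pairwise alignment in Biopython 1.88. Named beside the 8 genes were other connexins and Panx2, the highest genes of the partner and purinergic lists (up to 4 each) and those past 1.5-fold, and marker genes. Some genes of these lists are not reported here singly and enter only list counts, sums and medians. The genes and lists were chosen with earlier results of these data known. The gene listed as Nov appears in the annotation as Ccn3.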

Additional observations from a re-analysis of the deposited data

How the results depend on the processing

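The number of the 8 genes at 1 TPM in both libraries stayed at 6 with thresholds of 0.5 and 2 TPM, and was 6 to 7 with a replicate left out. The summed level of the 8 genes was 369.9 TPM as reported, 419 TPM when rescaled without spike-ins and 254 in FPKM, since these units have other totals. The Gja1 share of the connexins was 65.3% by TPM and 74.8% by expected counts not divided by length. Neighbours set apart numbered 3 as reported, and 4 to 7 with 1 library left out, where no spread between libraries enters the rule. When only genes with at least 100 mean expected counts were kept, 0 of the 8 genes passed 1.5-fold, since Gjb1 then left the comparison. At 2 TPM, 10 of the 25 purinergic genes were detected in both libraries, beside 16 at 1 TPM. With the spike-in total as the scale, 1.06% of all genes were 1.5-fold higher in replicate 1 and 41.8% in replicate 2, beside 3.99% and 8.76% with TMM. No paired analysis was possible because there is only 1 group. Gjb5 rests on 9 and 5 counts, and with 2 libraries a mean and its spread rest on 2 values.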
